A study of Rattus norvegicus with 183 samples.

Results

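The opioid receptors are a family of 4 genes: Oprm1 (mu), Oprk1 (kappa), Oprd1 (delta) and Oprl1 (nociceptin receptor). They were chosen by symbol, and all 4 were found among the 38354 genes of the deposited table. Opioid receptors are membrane receptors that couple to inhibitory G proteins. Once bound by a peptide or a drug they lower cyclic AMP, open inwardly rectifying potassium channels and close presynaptic calcium channels, so the neuron that carries them is quieted. In the ventral tegmental area the mu receptor is known from GABA neurons, whose silencing releases dopamine neurons from inhibition, and the kappa receptor from the dopamine neurons themselves, where its ligand dynorphin lowers dopamine release. The mu receptor is also known to be dense in the interpeduncular nucleus, which borders the ventral tegmental area at the midline, while the delta receptor is better known from forebrain.

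The libraries were made from polyA RNA of outbred laboratory rats, taken from the posterior part of the ventral tegmental area, with 1 library per animal identifier. The series describes 183 samples of this region, and values were used for all but the 31 that are marked as removed. No treatment, strain, sex, age or batch is given, so any treated and control animals cannot be told apart here. The questions are how much each receptor varied between animals and with which cells it varied. The 1 label that divides the libraries is the format of the animal's identifier, hexadecimal or decimal. Nothing in the labels says that separate dissections were made of 1 animal, and p-values measure the spread between these libraries.

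Values are given as CPM, the estimated gene counts scaled to 1 common library total. There were 15.2 to 57.2 M counts per library (median 24.3 M), and in the smallest library 1 CPM is 15.2 counts. The tissue label was checked against Th, the rate-limiting enzyme of dopamine synthesis. Th lay between 577 and 3934 CPM in all but 11 libraries, and in those 11 it lay between 1.33 and 3.47 CPM. Those 11 held a median of 1974 CPM of Slc17a7, a glutamate transporter of cortical neurons, and at most 0.121 CPM of the dopamine transporter Slc6a3, so they go against the label. All results below rest on the libraries with Th (87 hexadecimal, 53 decimal and 1 of another form) unless the others are named. Among them there are 6 with over 100 CPM of Slc17a7, and the highest, hexadecimal replicate 88, had 1064 CPM. Because the tissue is a dissected piece, fewer cells of a type and less RNA per cell cannot be told apart.

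The position that the deposited table gives for each receptor is chromosome 1, 45565371 for Oprm1, chromosome 5, 18675671 for Oprk1, chromosome 5, 149624999 for Oprd1 and chromosome 3, 189209495 for Oprl1. The RefSeq promoter table (build GRCr8) holds Oprm1 and Oprd1, the receptors with the fewest counts, and the 250 bases before their start sites are shown to place the gene starts that the table refers to. For Oprd1 and for 1 of the Oprm1 starts, the table's position is the RefSeq start site itself. The other Oprm1 start lies 20.6 kb further on. Capitals mark CACGTG and GGGCGG, searched on both strands.

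Oprm1, first start (chr1:45565121-45565370, plus strand): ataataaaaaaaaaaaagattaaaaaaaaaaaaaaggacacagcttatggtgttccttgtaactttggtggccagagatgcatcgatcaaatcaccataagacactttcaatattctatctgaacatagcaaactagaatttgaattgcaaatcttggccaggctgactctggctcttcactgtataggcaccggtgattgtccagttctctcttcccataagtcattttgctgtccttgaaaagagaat
Oprm1, second start (chr1:45585733-45585982, plus strand): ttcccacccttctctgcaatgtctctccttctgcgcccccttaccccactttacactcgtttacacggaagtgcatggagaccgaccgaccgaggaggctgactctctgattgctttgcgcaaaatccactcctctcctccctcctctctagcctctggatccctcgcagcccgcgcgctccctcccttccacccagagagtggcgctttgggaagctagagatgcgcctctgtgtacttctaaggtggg
Oprd1 (chr5:149625000-149625249, minus strand): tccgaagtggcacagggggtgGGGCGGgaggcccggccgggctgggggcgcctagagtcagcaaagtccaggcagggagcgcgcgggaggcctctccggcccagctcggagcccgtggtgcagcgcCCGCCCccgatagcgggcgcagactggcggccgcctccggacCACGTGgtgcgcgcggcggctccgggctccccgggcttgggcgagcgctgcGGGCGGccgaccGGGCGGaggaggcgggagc

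The Oprd1 window was 79.6% G and C and held 34 CG pairs, 1 CACGTG and 4 GGGCGG. That GC content was at percentile 98.9 of the 33469 rat windows of the same length, whose median was 51.2%. The 2 Oprm1 windows held neither motif and differed from each other. The first was 36.4% G and C (percentile 8.03) with 2 CG pairs, and the second 58.4% (percentile 72.1) with 13. Of all windows, 5.59% held CACGTG and 30.5% held GGGCGG. A match describes the letters of the window and is not a measured site.

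Oprm1, the receptor of morphine and the endorphins and enkephalins, varied most between animals. Its level in the libraries with Th was lowest at 0, had a median of 2.27 and was highest at 10.9 CPM, with quartiles of 0.897 and 4.19 CPM. The upper quartile was 4.67 times the lower. Only 3 libraries had fewer than 3 counts, and the median library had 61 counts, so most of the range lies above the counting limit. Its SD on the log2(CPM + 1) scale was 0.87, which is 0.53 above the trend for genes of the same mean and stands at percentile 97.5 of the 15536 genes tested. The widest gap between neighbouring libraries was 0.26 on that scale.

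Oprk1, the dynorphin receptor, was lowest at 9.18, had a median of 29.8 and was highest at 42.7 CPM, with quartiles of 23.5 and 34.7 CPM. Its SD of 0.41 was 0.18 above the trend (percentile 88.1). A gap of 0.63 on the log2 scale separates 2 libraries, at 9.18 and 9.32 CPM, from all others. They are hexadecimal replicates 88 and 64, the libraries with Th that had the most Slc17a7 (1064 and 607 CPM).

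Oprd1, the enkephalin receptor of the delta type, was close to the counting limit. It was lowest at 0, had a median of 0.829 and was highest at 4.38 CPM, with 20 counts in the median library and fewer than 3 counts in 7 libraries. Its SD of 0.39 was 0.09 above the trend (percentile 77.3 of 17656 genes with a mean of at least 0.5). The highest value is again replicate 88, and the next library had 2.27 CPM. Oprd1 had a mean under the filter of 1 on the log2(CPM + 1) scale, so its tests come from a fit without that filter.

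Oprl1, the receptor of nociceptin, was even across animals. It was lowest at 63.97, had a median of 98.4 and was highest at 129.9 CPM, and its upper quartile was 1.23 times the lower. Its SD of 0.22 lay on the trend for its mean (percentile 52.5). Transcript lengths were not used here, so the levels of the 4 receptors are not compared with one another.

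**Figure D1:**
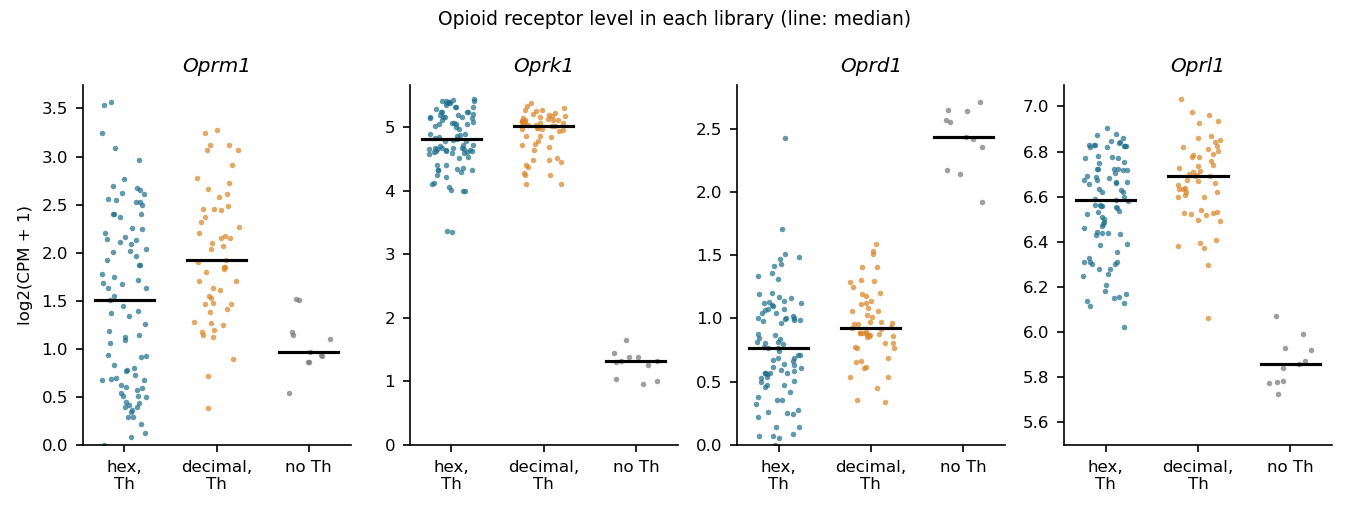
Level of each receptor in every library, as log2(CPM + 1) on the vertical axis, for libraries with Th with a hexadecimal (87) or decimal (53) identifier and for the 11 without Th. Lines are medians. Oprk1 in libraries with Th lies above all libraries without Th, and Oprd1 in 1 library with Th reaches the range of those without.

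The libraries with and without Th separated on Oprk1 and nearly on Oprd1, in opposite directions. Oprk1 was at least 9.18 CPM in each library with Th and at most 2.15 CPM in each without. Oprd1 was at most 2.27 CPM in 140 of the libraries with Th, against 2.78 to 5.56 CPM in those without, and the 1 library with Th that reached this range is replicate 88. Oprl1 overlapped little, with 2 libraries with Th at or below 66.3 CPM, the highest value without Th. Oprm1 overlapped widely, since 60 of the libraries with Th were at or below 1.86 CPM, the highest value without Th. These 2 sets of libraries are not groups in the labels, and no test was made between them. The share of all genes whose ranges separate in this way was not counted, so the separation is not shown to be particular to these receptors.

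The kappa receptor followed the dopamine neuron genes. A score was made for each cell type as the standardised mean z-score of its marker genes, and each gene was fitted on the score with identifier format as a covariate (limma, 140 libraries, Benjamini-Hochberg adjustment over all genes tested). Oprk1 rose by 0.35 ± 0.02 (SE) on the log2 scale for each SD of the dopamine score (adjusted p = 9.57e-35). Oprd1 fell by 0.13 ± 0.03 (adjusted p = 0.000396). Oprm1 (-0.04 ± 0.07, adjusted p = 0.712) and Oprl1 (0.03 ± 0.02, adjusted p = 0.187) did not pass. So 1 of 3 receptors past the filter was called, where 32.1% of all genes tested were called on this score (17.6% upward and 14.6% downward), and Oprd1 was called in the fit without the filter, where 14.5% of genes were. The Oprd1 slope was -0.08 and did not pass without the 6 libraries with over 100 CPM of Slc17a7 (adjusted p = 0.0671), and it was -0.05 in decimal libraries alone (adjusted p = 0.604).

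With single dopamine genes, the level of Oprk1 went up with all 16 of 16 (limma, Oprk1 as the predictor, where 62.4% of all genes tested were called in either direction and 39.6% upward). The median slope of the 16 was 0.36 per SD of Oprk1, against 0.02 over all genes tested. The closest were Ret, the receptor of glial-derived neurotrophic factor (r = 0.87), Lmx1b, a transcription factor of dopamine progenitors and neurons (0.87), the vesicular monoamine transporter Slc18a2 (0.86), and Nr4a2, a transcription factor that keeps dopamine neurons in their identity (0.84). Spearman's rho was between 0.85 and 0.87 for all 4, and each had an adjusted p of 2.86e-05 for r by a two-sided permutation test over 730 relations, from 1e-05, the smallest that 100000 resamples can give. Without the 2 libraries farthest in the marker r lay between 0.84 and 0.87. Within hexadecimal libraries r lay between 0.88 and 0.91, and within decimal ones between 0.76 and 0.90. Th itself was less close. Its r with Oprk1 was 0.48 over all libraries, 0.42 in hexadecimal and 0.85 in decimal ones (rho 0.41, adjusted p 2.86e-05 for r by permutation). Slc6a3 had an r of 0.74 (rho 0.85), with 0.72 in hexadecimal and 0.85 in decimal libraries.

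Oprd1 was related to most of the same genes with the opposite sign. Of the 16 dopamine genes, 12 went down and 0 went up as Oprd1 went up, where 19.4% of all genes tested went down and 28% up (47.4% in either direction). Slc6a3 had an r of 0.10 with Oprd1 and did not pass by permutation (adjusted p 0.288 for r). Its r was -0.54 with Th, -0.51 with En1, a midbrain patterning gene, and -0.49 with Pitx3, a transcription factor of dopamine neurons. The relation with Th was -0.64 in hexadecimal and -0.17 in decimal libraries (rho -0.52 over all, permutation adjusted p 2.86e-05 for r). Leaving out the 2 libraries farthest in Th gave -0.53, with replicate 88, the highest in Oprd1, still included. Without replicate 88 the Oprd1 slope on the dopamine score was -0.10, against -0.13 with it. In hexadecimal libraries r was -0.61 with En1 and -0.56 with Pitx3, and in decimal ones -0.10 and -0.27.

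Oprm1 split the dopamine genes. With Oprm1 as the predictor 4 of the 16 rose and 6 fell, where 51.6% of all genes tested rose and 25% fell (76.6% in either direction). It was negatively related to Th (r = -0.40, rho = -0.45, permutation adjusted p 2.86e-05 for r) and positively to Slc6a3 (r = 0.42, rho = 0.34, permutation adjusted p 2.86e-05 for r). The second relation was 0.52 in hexadecimal and -0.04 in decimal libraries, and -0.33 given the main axis described below.

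**Figure D2:**
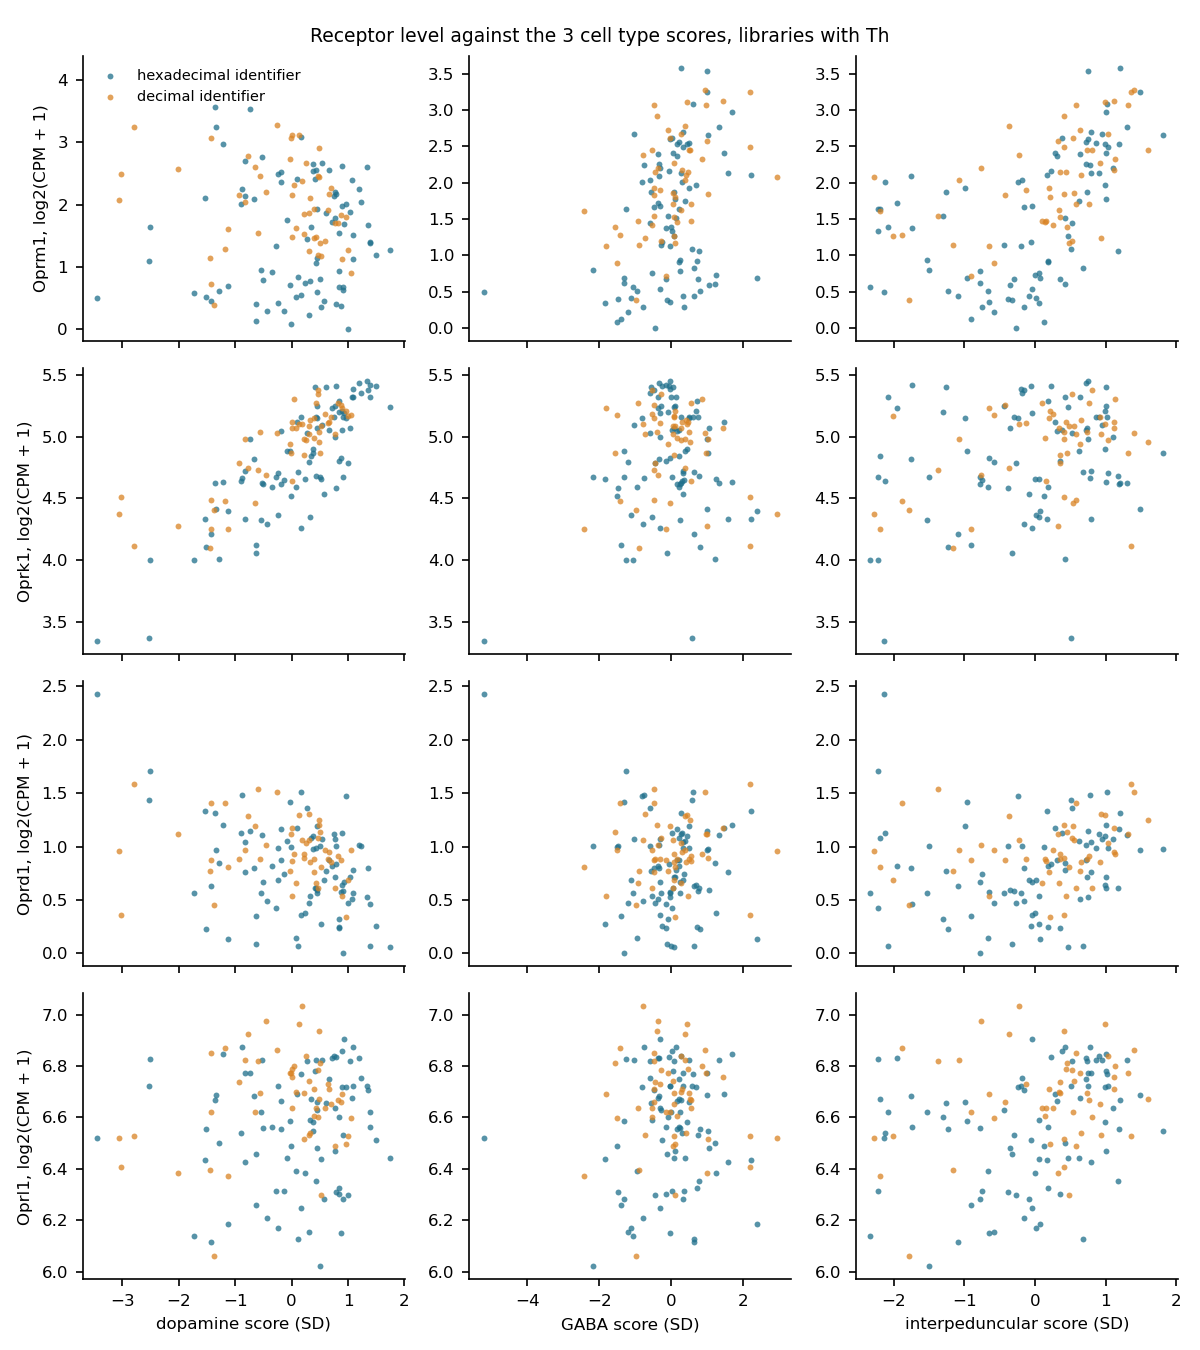
Receptor level, as log2(CPM + 1), against the dopamine, GABA and interpeduncular scores in SD, for the 140 libraries with Th and a hexadecimal or decimal identifier. Oprk1 climbs along the dopamine score in both formats, Oprm1 climbs along the interpeduncular score, and the point farthest left on the GABA score is replicate 88.

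The mu receptor rose with the GABA and interpeduncular scores, as it did with several scores of other cells given below. Oprm1 rose by 0.33 ± 0.06 per SD of the GABA score (adjusted p = 2.19e-05), where 43.9% of all genes tested were called (33.1% upward and 10.8% downward), and by 0.43 ± 0.06 per SD of the interpeduncular score (adjusted p = 1.75e-09), where 56.6% were (40.9% upward and 15.8% downward). No other receptor was called on the GABA score (Oprk1 0.03 ± 0.03, Oprl1 0.01 ± 0.02 and, without the filter, Oprd1 -0.04 ± 0.03). With replicate 88 left out the slope was -0.026 for Oprk1 and 0.025 for Oprd1, neither past the threshold. On a shorter list of 3 GABA genes Oprk1 (0.12) and Oprl1 (0.072) were called. On the interpeduncular score Oprk1 (0.11 ± 0.03, adjusted p = 0.00475) and Oprl1 (0.06 ± 0.02, adjusted p = 0.00343) also rose, and Oprd1 did not pass (0.05 ± 0.03, adjusted p = 0.271). The calls of Oprk1 and Oprl1 were lost under median-of-ratios scaling, at 0.074 for Oprk1 (adjusted p = 0.0543) and 0.025 for Oprl1 (adjusted p = 0.205). The Oprk1 call was also lost in hexadecimal libraries alone (0.097) and the Oprl1 call in decimal ones (0.047). Without the filter 19% of genes were called on the GABA score and 27.8% on the interpeduncular one. The Oprm1 slope on the GABA score did not pass with a general neuron score as a covariate (0.13, adjusted p = 0.408). That score of 8 pan-neuronal genes had an r of -0.55 with the GABA score.

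Among the genes of these 2 lists, Oprm1 was closest to Gad2, which makes GABA for release (r = 0.67, rho = 0.65), and to Chrna2, a nicotinic receptor subunit concentrated in the interpeduncular nucleus (r = 0.64, rho = 0.74). Next were Otp, a transcription factor of that nucleus and of the hypothalamus (r = 0.56, rho = 0.62), Gad1, the other GABA-synthesising enzyme (r = 0.52, rho = 0.56), and Pax7, a marker of the interpeduncular lineage (r = 0.45, rho = 0.63). All 5 had a permutation adjusted p of 2.86e-05 for r, and r without the 2 farthest libraries was 0.67, 0.66, 0.55, 0.53 and 0.45. In that order, r was 0.70, 0.65, 0.54, 0.51 and 0.41 in hexadecimal libraries, 0.48, 0.59, 0.60, 0.61 and 0.58 in decimal ones, and 0.06, 0.28, 0.31, 0.39 and 0.30 given the main axis described below. Of the 7 interpeduncular genes past the filter, 6 rose with Oprm1 as the predictor and 0 fell, where 51.6% of all genes tested rose and 25% fell. The exception, Pou4f1, a transcription factor of medial habenula neurons, had an r of 0.03. Of the 7 GABA genes, 4 rose and 1 fell, which is near those shares. The falling one was Gata3, a transcription factor of midbrain GABA neurons, with an r of -0.25 (rho -0.28, permutation adjusted p 0.00576 for r). Its r was -0.37 in hexadecimal and 0.05 in decimal libraries.

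With Oprk1 as the predictor 5 of the 7 interpeduncular genes rose and 0 fell (39.6% of all genes tested rose and 22.7% fell). Its largest r there was 0.60 with Chrna3, a nicotinic subunit (0.59 in hexadecimal and 0.66 in decimal libraries), while Irx2 (-0.06) and Pou4f1 (-0.11) did not pass by permutation (adjusted p 0.532 and 0.264 for r). By rank Pou4f1 was negatively related to Oprk1 (rho = -0.35, permutation adjusted p 5.75e-05). The score without the 3 nicotinic genes gave Oprk1 a slope of 0.03, which did not pass.

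**Figure D3:**
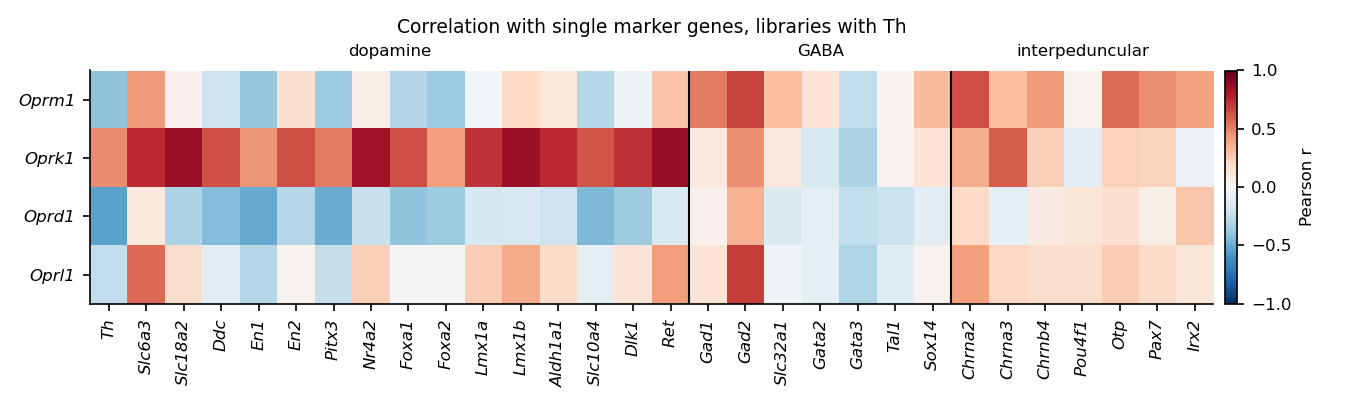
Pearson r of each receptor (rows) with single dopamine, GABA and interpeduncular genes (columns) over the libraries with Th. Red is positive and blue negative. The Oprk1 row is red for all 16 dopamine genes, the Oprd1 row is blue for Th (-0.54), and the Oprm1 row is reddest at Gad2 (0.67) and Chrna2 (0.64).

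With the 3 scores in 1 model the receptors kept different profiles. Oprk1 rose with dopamine (0.36 ± 0.02, adjusted p = 4.05e-36) and with GABA (0.08 ± 0.02, adjusted p = 0.00257), and its interpeduncular slope was -0.00 ± 0.02. Oprm1 rose with the interpeduncular score (0.38 ± 0.07, adjusted p = 1.41e-06) and with GABA (0.18 ± 0.07, adjusted p = 0.0458), and its dopamine slope of -0.10 ± 0.06 did not pass. With the main axis described below added to this model the Oprm1 GABA slope was 0.043 and did not pass (adjusted p = 0.620), and the dopamine slope was -0.18 and passed (adjusted p = 0.000254). Oprd1 fell with dopamine (-0.18 ± 0.03, adjusted p = 7.66e-07) and with GABA (-0.12 ± 0.03, adjusted p = 0.0106) and rose with the interpeduncular score (0.13 ± 0.03, adjusted p = 0.000829). Replicate 88 had the lowest GABA score (-5.21), the lowest Oprk1 and the highest Oprd1 of the libraries with Th. The joint model was not run without it, so its part in the joint GABA slopes of Oprk1 and Oprd1 was not tested. Oprl1 rose with the interpeduncular score alone (0.05 ± 0.02, adjusted p = 0.0213). The share of all genes tested that was called was 30.6% on dopamine, 19.7% on GABA and 37.4% on the interpeduncular score. For Oprd1, without the filter, the shares were 14.1%, 7.11% and 16.9%. The 3 scores and the format together held 73.6% of the variance of Oprk1, which is percentile 99.25 of the genes tested, 36.9% of Oprm1 (90.4), 27.6% of Oprd1 (81.6) and 13.9% of Oprl1 (44.2). The median gene had 15.4%.

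Slopes did not differ detectably between the formats. For the dopamine score the hexadecimal minus decimal difference was 0.10 ± 0.04 for Oprk1 (adjusted p = 0.382), 0.16 ± 0.15 for Oprm1 (0.690), -0.14 ± 0.06 for Oprd1 (0.568) and -0.02 ± 0.04 for Oprl1 (0.834). The interaction was called for 0 of all genes tested (0%) on each of the 3 scores, while 10.2%, 7.43% and 6.42% of them had an unadjusted p under 0.05 on the dopamine, GABA and interpeduncular score. Unadjusted, Oprk1 (p = 0.0106) and Oprd1 (p = 0.0301) were under 0.05 on the dopamine score in this limma fit, and no other receptor was on any score.

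Other cells in the piece moved with Oprm1 as well. The Oprm1 slopes on the astrocyte and oligodendrocyte precursor scores were no smaller than the 0.43 on the interpeduncular score. Oprm1 rose with the astrocyte score (0.45 ± 0.06), the oligodendrocyte precursor score (0.45 ± 0.06), the meningeal score (0.39 ± 0.06), the serotonin score (0.35 ± 0.06), the endothelial score (0.34 ± 0.06), the hypothalamic score (0.24 ± 0.07) and the microglia score (0.23 ± 0.07). It fell with the general neuron score (-0.44 ± 0.06), the oligodendrocyte score (-0.30 ± 0.07) and the level of the glutamate transporter Slc17a6 (-0.21 ± 0.07). These relations are shared by much of the transcriptome: 75.6% of all genes tested were called on the astrocyte score, 71.7% on the precursor score, 70.1% on the general neuron score, 61.2% on the endothelial score, 53% on the Slc17a6 level, 71.6% on the meningeal score, 55% on the microglia score, 44.8% on the hypothalamic score, 43.5% on the oligodendrocyte score and 33.6% on the serotonin score. Oprk1 fell with the cortical score (-0.14 ± 0.03), on which 7.30% of genes were called, and with the glutamate score (-0.17 ± 0.03), on which 36.2% were. Replicates 88 and 64, the lowest in Oprk1, had the most Slc17a7, a gene of the cortical score. The cortical slope was not run without them. Oprl1 rose with the cholinergic score (0.05 ± 0.02, adjusted p = 0.0278), on which 14.9% of genes were called, and with the precursor score (0.07 ± 0.02). It also rose with the hypothalamic score, the Slc17a6 level and the meningeal score (0.05, 0.04 and 0.04). It fell with the oligodendrocyte and microglia scores (-0.04 each). In the fit without the filter Oprd1 rose with the cholinergic (0.10 ± 0.03, adjusted p = 0.0445) and precursor scores (0.08 ± 0.03, adjusted p = 0.0389). The share of genes called without the filter is not given for these scores. Oprk1 rose with the hypothalamic (0.14 ± 0.03) and astrocyte (0.12 ± 0.03) scores. The part of these other cells in the receptor slopes was not tested beyond the 3-score model and the general neuron score.

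The largest axis of variation ran through the receptors too. The first principal component (PC1) of the libraries with Th held 31.9% of the variance, and 81.8% of all genes tested were called on it. The sign of PC1 is arbitrary and was set so that its r with Oprm1 is positive. The r of PC1 was 0.80 with Oprm1, 0.62 with Oprl1, 0.48 with Oprk1 and 0.35 with Oprd1 (rho 0.77, 0.46, 0.40 and 0.30, permutation adjusted p for r of 2.86e-05 for the first 3 and 0.000128 for Oprd1). Within hexadecimal libraries r was 0.82, 0.69, 0.53 and 0.35, and within decimal ones 0.72, 0.27, 0.23 and 0.10. Without the 2 farthest libraries it was 0.80, 0.60, 0.45 and 0.33. PC1 had an r of -0.59 with the general neuron score and 0.42 with the interpeduncular score, and their part in these relations was not tested. With PC1 as a covariate, a choice made after seeing the data, the Oprk1 slope on dopamine was 0.32 and the Oprm1 slope on the interpeduncular score 0.18, both still past the threshold. The Oprm1 slope on dopamine became -0.16 and passed (adjusted p = 0.00178). The slopes of Oprk1 (0.03) and Oprl1 (0.01) on the interpeduncular score no longer passed.

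**Figure D4:**
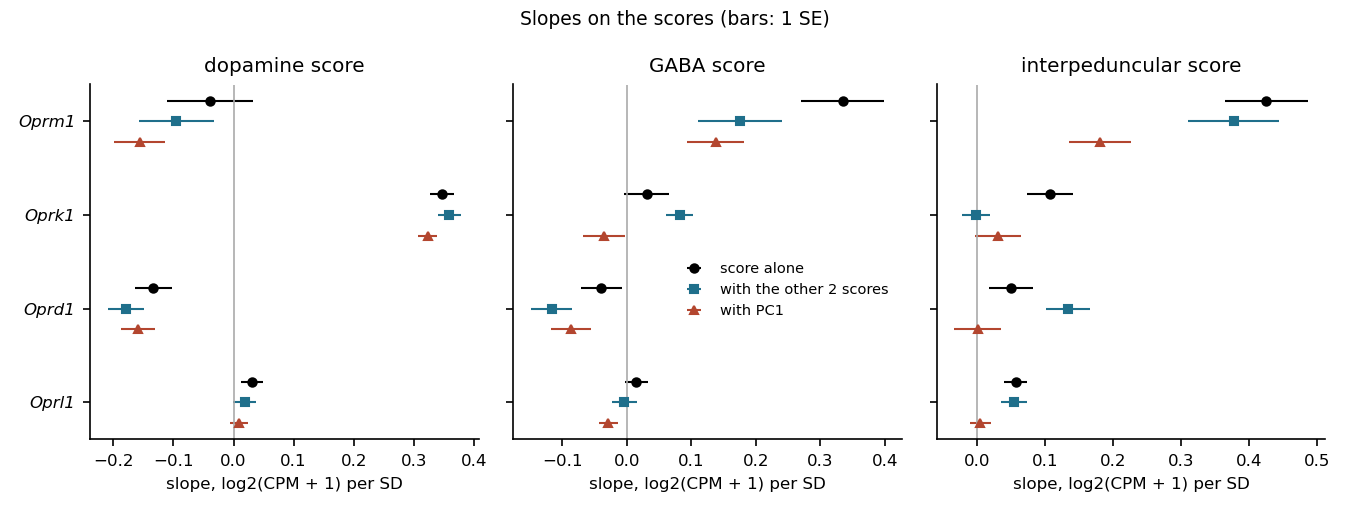
Slope of each receptor on the 3 scores, in log2(CPM + 1) per SD, with the score alone, with the other 2 scores in the model and with PC1 in the model. Bars are 1 SE. The Oprk1 slope on dopamine stays between 0.32 and 0.36, and the Oprm1 slope on the interpeduncular score is 0.43, 0.38 and 0.18.

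Oprm1 was on average lower in hexadecimal than in decimal libraries. It was lowest at 0, had a median of 1.85 and was highest at 10.9 CPM in hexadecimal libraries, against 0.308, 2.80 and 8.71 CPM in decimal ones, so the ranges overlap. The quartiles were 0.594 and 3.69 CPM in hexadecimal and 1.77 and 4.48 CPM in decimal libraries. The difference was -0.49 ± 0.14 on the log2 scale (adjusted p = 0.00513). Oprl1 had a median of 95.1 CPM in hexadecimal and 102.3 CPM in decimal libraries, a difference of -0.11 ± 0.04 (adjusted p = 0.0117). Oprk1 (-0.10 ± 0.07, adjusted p = 0.273) and Oprd1 (-0.16 ± 0.07, adjusted p = 0.0811) did not pass. Thus 2 of 3 receptors past the filter were called, where 38% of all genes tested were (15.2% without the filter). Hexadecimal libraries with Th had a median of 22.9 M counts and decimal ones 27.5 M. With the library total as a covariate the Oprm1 difference was -0.41 (adjusted p = 0.0584) and that of Oprl1 -0.11 (adjusted p = 0.0537), and with PC1 they were -0.17 (adjusted p = 0.156) and -0.05 (adjusted p = 0.205).

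The receptors were mostly related to one another across animals, except kappa with delta. Oprm1 and Oprl1 had the largest r (0.67, rho = 0.66). Oprd1 and Oprl1 had 0.51 (rho = 0.55), Oprm1 and Oprd1 0.49 (rho = 0.55) and Oprk1 and Oprl1 0.40 (rho = 0.40), all with a permutation adjusted p of 2.86e-05 for r. Oprm1 and Oprk1 had 0.31 (rho = 0.27, permutation adjusted p 0.000315 for r). Oprk1 and Oprd1 had -0.15 (rho = -0.09) and did not pass (permutation adjusted p 0.101 for r and 0.344 for rho). In the order of the pairs just given, r in hexadecimal libraries was 0.71, 0.47, 0.46, 0.41, 0.40 and -0.17, and in decimal libraries 0.46, 0.49, 0.42, 0.32, -0.01 and -0.23. Without the 2 farthest libraries it was 0.67, 0.52, 0.56, 0.39, 0.29 and -0.06.

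Given PC1, r between Oprm1 and Oprl1 was 0.37, that between Oprm1 and Oprk1 was -0.14, and that between Oprk1 and Oprd1 was -0.39 (permutation p = 2.00e-05, not adjusted). The mu and kappa relation was thus not detectable given PC1 (permutation p = 0.0985, not adjusted) or in decimal libraries alone. Of 730 relations in the family, which includes every gene and score of the lists used, 451 passed.

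**Figure D5:**
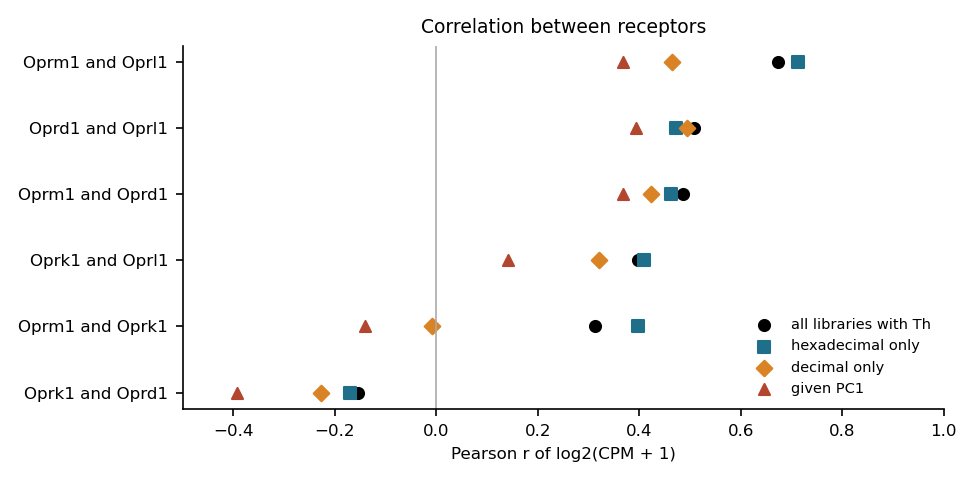
Pearson r between each pair of receptors over all libraries with Th, within hexadecimal and decimal libraries, and given PC1. Oprm1 and Oprl1 stay positive (0.37 to 0.71), Oprm1 and Oprk1 lie on both sides of 0, and Oprk1 and Oprd1 lie below 0 in all 4 settings.

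Of the ligand genes, Pdyn, the precursor of dynorphin, rose with all 3 scores, by 0.21 ± 0.04 with dopamine, 0.19 ± 0.04 with GABA and 0.32 ± 0.03 with the interpeduncular score (adjusted p = 6.46e-06, 0.000128 and 6.17e-15). It lay between 3.14 and 31.3 CPM (median 13.9). Penk, the precursor of the enkephalins, rose by 0.39 ± 0.06 with GABA and 0.61 ± 0.05 with the interpeduncular score and fell with dopamine (-0.17 ± 0.07, adjusted p = 0.0404). Pnoc, the precursor of nociceptin, rose by 0.45 ± 0.05 with GABA and 0.63 ± 0.04 with the interpeduncular score (adjusted p = 2.58e-11 and 6.60e-33), and its slope on dopamine was 0.06 ± 0.07. Pomc, the precursor of beta-endorphin, passed on none of the 3 and lay between 0.2996 and 1353 CPM (median 1.85).

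Oprk1 was related to Pdyn (r = 0.49, rho = 0.47, permutation adjusted p 2.86e-05 for r, 0.52 in hexadecimal and 0.49 in decimal libraries) and not detectably to Penk (-0.05) or Pnoc (0.13). Oprm1 was related to Penk (r = 0.42, rho = 0.44), Pdyn (0.40, rho = 0.42) and Pnoc (0.32, rho = 0.35), with r of 0.39, 0.46 and 0.28 in hexadecimal and 0.57, 0.44 and 0.51 in decimal libraries. The nociceptin receptor Oprl1 was not detectably related to Pnoc (r = -0.06, rho = -0.06, permutation adjusted p 0.514 for r), and Oprd1 was related to Penk by rank but not by r (rho = 0.19, r = 0.15, permutation adjusted p 0.0434 for rho and 0.121 for r). Given PC1, the r of Oprm1 with Pdyn was 0.02 and that of Oprl1 with Pnoc was -0.28, values given without a test.

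Among 66 genes of opioid peptides, signalling and processing, 31 rose and 11 fell with the dopamine score, 31 rose and 8 fell with GABA, and 39 rose and 6 fell with the interpeduncular score. Of all genes tested, 17.6% rose and 14.6% fell with dopamine, 33.1% and 10.8% with GABA, and 40.9% and 15.8% with the interpeduncular score. The median slope of the 66 was 0.04 on dopamine, 0.06 on GABA and 0.08 on the interpeduncular score, against 0.00, 0.03 and 0.03 over all genes tested. The GABA count moved with the scaling and with the neuron covariate: 8 rose and 6 fell under median-of-ratios scaling, and 4 rose and 2 fell with the general neuron score in the model. Under the same scaling 29 rose and 10 fell with the interpeduncular score. Of the potassium channels that the receptors open, Kcnj6 (0.31 ± 0.02) and Kcnj5 (0.31 ± 0.03) rose with dopamine, Kcnj3 fell (-0.11 ± 0.03, adjusted p = 0.00152) and Kcnj9 did not pass (-0.02 ± 0.04). Of the inhibitory G protein alpha subunits 4 of 5 rose with dopamine (17.6% of all genes tested rose), led by Gnai1 (0.13 ± 0.01) and Gnaz (0.11 ± 0.01), and 0 fell. Against the same share, both presynaptic calcium channel genes rose with dopamine, Cacna1a by 0.09 ± 0.03 and Cacna1b by 0.16 ± 0.02. So did all 4 peptide processing genes, of which the convertase Pcsk1 (0.14 ± 0.03) had the largest slope. Rgs12, a brake on inhibitory G proteins, rose most of the 12 RGS genes with GABA (0.22 ± 0.03) and with the interpeduncular score (0.29 ± 0.02).

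Over all libraries with Th, the largest r of Oprk1 was with Kcnj5 (0.78, rho 0.73) and Kcnj6 (0.71, rho 0.76), that of Oprm1 with Kcnj9 (0.76, rho 0.79), that of Oprd1 with Kcnj3 (0.53, rho 0.50) and that of Oprl1 with Kcnj9 (0.64, rho 0.54), all with a permutation adjusted p of 2.86e-05 for r. In hexadecimal libraries these were 0.78, 0.75, 0.77, 0.51 and 0.71, and in decimal libraries 0.76, 0.68, 0.64, 0.51 and 0.24. Without the 2 farthest libraries they were 0.76, 0.72, 0.77, 0.49 and 0.65. For Oprl1 another channel was closer in decimal libraries (Kcnj6 at 0.49) and given PC1 (Kcnj3 at 0.46, against 0.27 for Kcnj9). Among the adenylyl cyclases, which the receptors inhibit, Adcy1 had the largest r with Oprm1 (0.85, rho 0.86) and with Oprl1 (0.75, rho 0.74), while Adcy3 (0.63, rho 0.66) had it with Oprk1. Oprl1 was also close to the calcium channel genes Cacna1a (0.80, rho 0.76) and Cacna1b (0.74, rho 0.70). In the order Adcy1 with Oprm1, Adcy1 with Oprl1, Adcy3 with Oprk1, Cacna1a and Cacna1b, r was 0.87, 0.76, 0.62, 0.81 and 0.76 in hexadecimal libraries and 0.73, 0.64, 0.62, 0.73 and 0.69 in decimal ones. Mme, the enkephalin-cutting enzyme neprilysin, had an r of 0.75 with Oprm1, 0.63 with Oprd1 and 0.60 with Oprl1 (0.73, 0.64 and 0.62 in hexadecimal libraries and 0.75, 0.54 and 0.47 in decimal ones). All these relations had a permutation adjusted p of 2.86e-05 for r. As Oprk1 rose, 36 of the 66 rose and 10 fell, and as Oprm1 rose, 48 rose and 11 fell (with Oprk1 39.6% of all genes tested rose and 22.7% fell, and with Oprm1 51.6% rose and 25% fell). As Oprd1 rose, 20 rose and 11 fell (28% and 19.4% of all genes), and as Oprl1 rose, 40 rose and 10 fell (43.4% and 26.6% of all genes, 69.9% in either direction).

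The genes most like each receptor were taken by Pearson r over the libraries with Th among genes tested, with the same sign in both formats, as a description. For Oprk1 they included Pdzrn4 (0.90), Erc2 (0.90), a protein of the presynaptic active zone, Kcnd3 (0.90), an A-type potassium channel, Cntnap4 (0.89), Tmem255a (0.89), Syt4 (0.89), Gfra1 (0.88), a co-receptor of Ret, Ret (0.87) and Tub (0.87). Among the most negative were Tuba8 (-0.75), Rtn4r (-0.75), Clec2l (-0.73) and Ldhb (-0.73). Given PC1, Pdzrn4, Erc2 and Kcnd3 still had 0.87 to 0.89.

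For Oprm1 they were Ptprt (0.90), a receptor phosphatase, LOC102549375 (0.90), the chromatin gene Arid1b (0.88), Zfp704 (0.88), Mgat5 (0.87), Tenm3 (0.87), Nsd1 (0.87), Zhx3 (0.87), Cntnap2 (0.87) and Nbea (0.87). The most negative were Tubb4b (-0.83), Fkbp1b (-0.81), Cfl1 (-0.80), Igip (-0.80) and Ywhah (-0.80). Given PC1, Ptprt had 0.72.

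For Oprl1 they were Plekhm3 (0.89), Atg2b (0.87), the axonal kinesin Kif1a (0.87), Cand1 (0.87) and Dmxl2 (0.86), followed by 5 genes from 0.86 down to Camsap1 (0.86). Among the most negative were Gng5 (-0.85), a G protein gamma subunit, Arpc2 (-0.82) and Btf3 (-0.80). For Oprd1 they were Slc6a17 (0.70), the T-type calcium channel Cacna1i (0.69), Sipa1l2 (0.68), Sptb (0.66), Unc13c (0.64) and Mme (0.63), and the most negative were Gap43 (-0.60), a growth cone protein, and Nrgn (-0.60).

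The genes at either end differed in length. The median RefSeq gene span was 24.1 kb over all genes tested. It was 111.9 kb for the 100 genes of highest r with Oprm1 and 9.05 kb for the 100 of lowest r, 104.7 and 12.0 kb for Oprk1, 127.6 and 13.4 kb for Oprd1, and 103.5 and 6.49 kb for Oprl1. Genes are not independent replicates, and this is a description. The share of genes tested with r beyond 0.5 in either direction was 34.0% for Oprm1, 28.3% for Oprl1, 11.9% for Oprk1 and 1.74% for Oprd1.

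Genes near the receptors were also set beside them. Within 250 kb, 0 of 3 genes passed the filter near Oprm1, there were 0 genes near Oprk1, 9 of 16 passed near Oprd1 and 14 of 22 near Oprl1. For Oprd1 the largest r was 0.53 with Epb41 (0.51 in hexadecimal and 0.46 in decimal libraries). For Oprl1 it was 0.68 with Myt1, a zinc finger gene of the oligodendrocyte and neuronal lineages, then 0.65 with Dnajc5, a synaptic vesicle chaperone. Rgs19, whose product restrains inhibitory G proteins and whose position is 19.0 kb from that of Oprl1, had an r of -0.57 with it, which was -0.64 in hexadecimal and -0.04 in decimal libraries and -0.15 given PC1.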

How the data were processed

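PolyA libraries of 1 tissue were used. The authors deposited 1 table of log2-transformed values for the 152 libraries, and per the submitters' processing notes used kallisto 0.48 (genome build: not given in the sources used here). Back-transformed with 2^x minus 1, the log2 values sum to library totals and 55.7% of those under 100 are within 0.001 of a whole number, so they were read as log2(estimated count + 1), rescaled to CPM and logged again with a pseudocount of 1. Genes with a mean of at least 1 on that scale over the 152 libraries were tested (15536 of 34551 with any count). Oprd1, with a lower mean, comes from the fit without this filter. The 141 libraries with Th of at least 10 CPM were analysed, and 1 with another identifier form stayed out of the limma fits. Tools were limma 3.58.1 (R 4.3.3) and Python 3.11.15, with both tests checked on simulated data. The threshold was an adjusted p of 0.05. Named genes are the 4 receptors, genes of the lists, the 10 highest and 5 lowest r per receptor, and filtered genes within 250 kb; some genes that the rule names are not reported here. Members and lists were chosen with earlier results of these data known. Counting limits cover counting error only. Sequences are from RefSeq, build GRCr8.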

Additional observations from a re-analysis of the deposited data

Results flagged for a closer look

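In the 11 libraries without Th, which the comparisons above leave out, the 4 receptors were all above the limit of 3 counts. Their median level there was 0.960 CPM for Oprm1, 1.49 CPM for Oprk1, 4.41 CPM for Oprd1 and 57.1 CPM for Oprl1. The identity of these libraries was not tested beyond the marker genes given above.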

How the results depend on the processing

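Over up to 12 alternatives each, the Oprk1 slope on dopamine kept its call (0.29 to 0.38), as did the Oprm1 slope on the interpeduncular score (0.18 to 0.57). Calls that changed are listed by setting, and their cause was not tested. With PC1 as a covariate, added after seeing the data, the Oprm1 slope on dopamine was -0.16 (-0.18 in the joint model) and was gained. The joint Oprk1 interpeduncular slope of -0.043 was gained. The slopes of Oprk1 (0.031) and Oprl1 (0.0052, joint 0.015) on the interpeduncular score, the joint Oprm1 GABA slope (0.043), and the format differences of Oprm1 (-0.17) and Oprl1 (-0.051) were lost. Among r values with PC1, Oprm1 and Oprk1 turned to -0.14 (no longer past the threshold), Oprk1 and Oprd1 gained a call at -0.39, and Oprk1 and Oprl1 lost it at 0.14. Of single genes, r of Oprm1 turned to -0.33 with Slc6a3, -0.019 with Kcnj5 and -0.029 with Adcy5.

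Median-of-ratios scaling lost the interpeduncular slopes of Oprk1 (0.074) and Oprl1 (0.025), gained Oprk1 with Oprd1 (r = -0.22), and left 8 pathway genes that rose with GABA (31 in the fit reported). The general neuron score lost the Oprm1 GABA slope (0.13) and left 4 that rose and 2 that fell (8 in the fit reported). The count that rose with GABA was 13 in decimal libraries, 19 in hexadecimal ones and 9 with PC1, and 3 fell in decimal libraries. The 11 that fell with dopamine were 7 without the Slc17a7-rich libraries, 2 in decimal libraries and 18 with PC1, and the 6 that fell with the interpeduncular score were 10 under median-of-ratios scaling. Shorter lists lost the Oprk1 interpeduncular slope (0.034) and gained GABA slopes for Oprk1 (0.12) and Oprl1 (0.072). Decimal libraries alone lost the Oprd1 dopamine slope (-0.051), the Oprl1 interpeduncular slope (0.047) and Oprk1 with Oprl1 (r = 0.32), turned Oprm1 with Oprk1 to -0.0087, and turned r of Oprm1 with Slc6a3 (-0.041), Oprk1 with Gad2 (-0.024) and Oprd1 with Rab42 (-0.028). Hexadecimal libraries alone lost the Oprk1 interpeduncular slope (0.097). Without the Slc17a7-rich libraries Oprd1 lost its dopamine slope (-0.079) and gained an interpeduncular one (0.077), which it also gained without replicate 88 (0.079). Among format differences, the library total lost Oprm1 (-0.41) and Oprl1 (-0.11), the 3 scores gained Oprk1 (-0.19) and a pseudocount of 0.1 gained Oprd1 (-0.45). No paired analysis was possible because the labels give no replicate numbers shared between groups. Leaving out each library in turn, which like the fit without replicate 88 was chosen after seeing the data, moved no called slope on a single dopamine, GABA or interpeduncular score by over 1.5 times, and the joint and other cell type slopes were not run this way. Depth limits Oprd1 most, with 20 counts in the median library.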
